A study of Mus musculus with 4 samples.

Results

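Glutamate receptors and the auxiliary proteins that travel with them were followed as 37 genes in single nuclei from the E16.5 medial neocortex of mice (E, embryonic day). The members were chosen by gene symbol, with earlier results of these data known. They included the AMPA receptor subunits (*Gria1* to *Gria4*), the kainate receptor subunits (*Grik1* to *Grik5*), the NMDA receptor subunits (*Grin1*, *Grin2a* to *Grin2d*, *Grin3a* and *Grin3b*), the delta receptor gene *Grid1*, the metabotropic receptors (*Grm2* to *Grm8*), the transmembrane AMPA receptor regulatory proteins or TARPs (*Cacng2* to *Cacng5*, *Cacng7* and *Cacng8*), the related calcium channel gamma subunit gene *Cacng6*, *Neto1* and *Neto2*, and the cornichons *Cnih2* and *Cnih3*. All 37 were present among the 56884 genes of the count tables. The control group consisted of 2 libraries from *Sst-Cre/tdTomato* mice, in which somatostatin-expressing cells carry Cre and a red fluorescent reporter. The Dnmt1 KO group consisted of 2 libraries from *Sst-Cre/tdTomato/Dnmt1 loxP2* mice, in which Cre deletes the DNA methyltransferase gene *Dnmt1* in postmitotic cells of the *Sst* lineage. Because the driver acts in that lineage only, most nuclei of a Dnmt1 KO library, excitatory neurons and progenitors included, were not themselves targeted. Both groups share the Cre and reporter alleles and the C57BL/6J background, and by the methods every library is a separate brain. Each genotype test therefore compared 2 libraries with 2. The values are deposited counts of transcripts per nucleus and gene. By the gene annotation of the same genome build, 35 of the 37 genes are overlapped by another gene, 7 of them by a protein-coding one, and how strand was used in counting is not given in the sources used here.

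Ionotropic glutamate receptors are tetrameric channels. AMPA receptors carry the fast excitatory current, and their permeability to calcium is set mainly by whether the edited GluA2 subunit, the product of *Gria2*, is present. NMDA receptors need the obligatory GluN1 subunit (*Grin1*) together with GluN2 or GluN3 subunits. Those made of GluN1 and GluN2 need bound glutamate to open, and the current they pass depends on membrane depolarization. Kainate receptors modulate excitability and transmitter release, delta receptors act as synaptic organizers, and metabotropic receptors couple to G proteins. TARPs and cornichons control trafficking and gating of AMPA receptors, and *Neto1* and *Neto2* encode auxiliary subunits of kainate receptors. In the fetal cortex these receptors are present before most synapses have formed, on progenitors and on migrating interneurons.

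Barcodes with 1500 to 60000 transcripts were retained. This left 5640 and 12064 nuclei in the Dnmt1 KO libraries versus 7047 and 4905 in the control libraries. The upper limit removed more from the controls, 188 and 429 barcodes with 19.2% and 29.4% of all transcripts, than from the Dnmt1 KO libraries, 9 and 92 barcodes with 1.35% and 4.37%. Genotype values that this limit moved are therefore also given without it. Control replicate 2 was the deepest, with a median of 21140 transcripts per nucleus against 12274 to 12401 in the other libraries, and the labels place it alone in batch 2. Nuclei were assigned to classes with marker lists that contain no member gene, and a class name ends in "-like" for that reason. IPC-like nuclei resemble intermediate progenitor cells, and MGE- and CGE-interneuron-like nuclei resemble interneurons born in the medial and caudal ganglionic eminences. Markers kept out of the gate were enriched for every list member in 12 of 16 classes. Subplate-like and OPC-like nuclei had 1 of 3 such markers enriched, and upper-layer-like and IPC-like nuclei had 2 of 3. Striatal-like nuclei came mostly from control replicate 1 (406 nuclei, against 7 to 86 elsewhere), and choroid-plexus-like nuclei (175) and meningeal-like nuclei (274) mostly from Dnmt1 KO replicate 2. No barcode was shared between libraries. In each class counts were summed per library and scaled to that library's total in the class as CPM, for which the total is set to 1e6. Means are given ± SD over the 4 libraries and log2 fold changes ± SE. Where 4 values are given, they are those of replicates 1 and 2 of each genotype in that order.

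Levels differed strongly between classes for most members. In 11 classes with at least 20 nuclei in every library, 8 members had their highest mean level in MGE-interneuron-like nuclei, 8 in deep-layer-like nuclei and 7 in Cajal-Retzius-like nuclei. *Grin3b* (an NMDA subunit), *Grm6* (the metabotropic receptor of retinal bipolar cells) and *Cacng6* stayed below 1 CPM in every one of these classes and were not tested between classes. Free RNA adds transcripts of abundant neuronal genes to nuclei that do not make them, and it was not measured here. The level in endothelial-like nuclei was therefore taken as a reference. Above it, in the sense that the lowest library of the class exceeded the highest endothelial-like library, stood 25 of 37 members in MGE-interneuron-like nuclei, 21 in CGE-interneuron-like, 20 in deep-layer-like, 11 in radial-glia-like, 8 in upper-layer-like and 6 in IPC-like nuclei. The same count was not made over all genes, so these numbers do not set the members apart from other genes. The 20 include *Cacng6*, which was under 1 CPM in deep-layer-like nuclei and listed at 0 in endothelial-like nuclei. Endothelial-like sums rested on 44 to 242 nuclei per library. Levels at or below that reference are only said not to exceed it. Some class means lay below it, so it does not measure free RNA in every class. *Gria1* was at 64.0 CPM in radial-glia-like against 237 CPM in endothelial-like nuclei, and *Grik1* at 6.38 CPM in upper-layer-like against 27.5 CPM in endothelial-like nuclei.

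**Figure D1:**
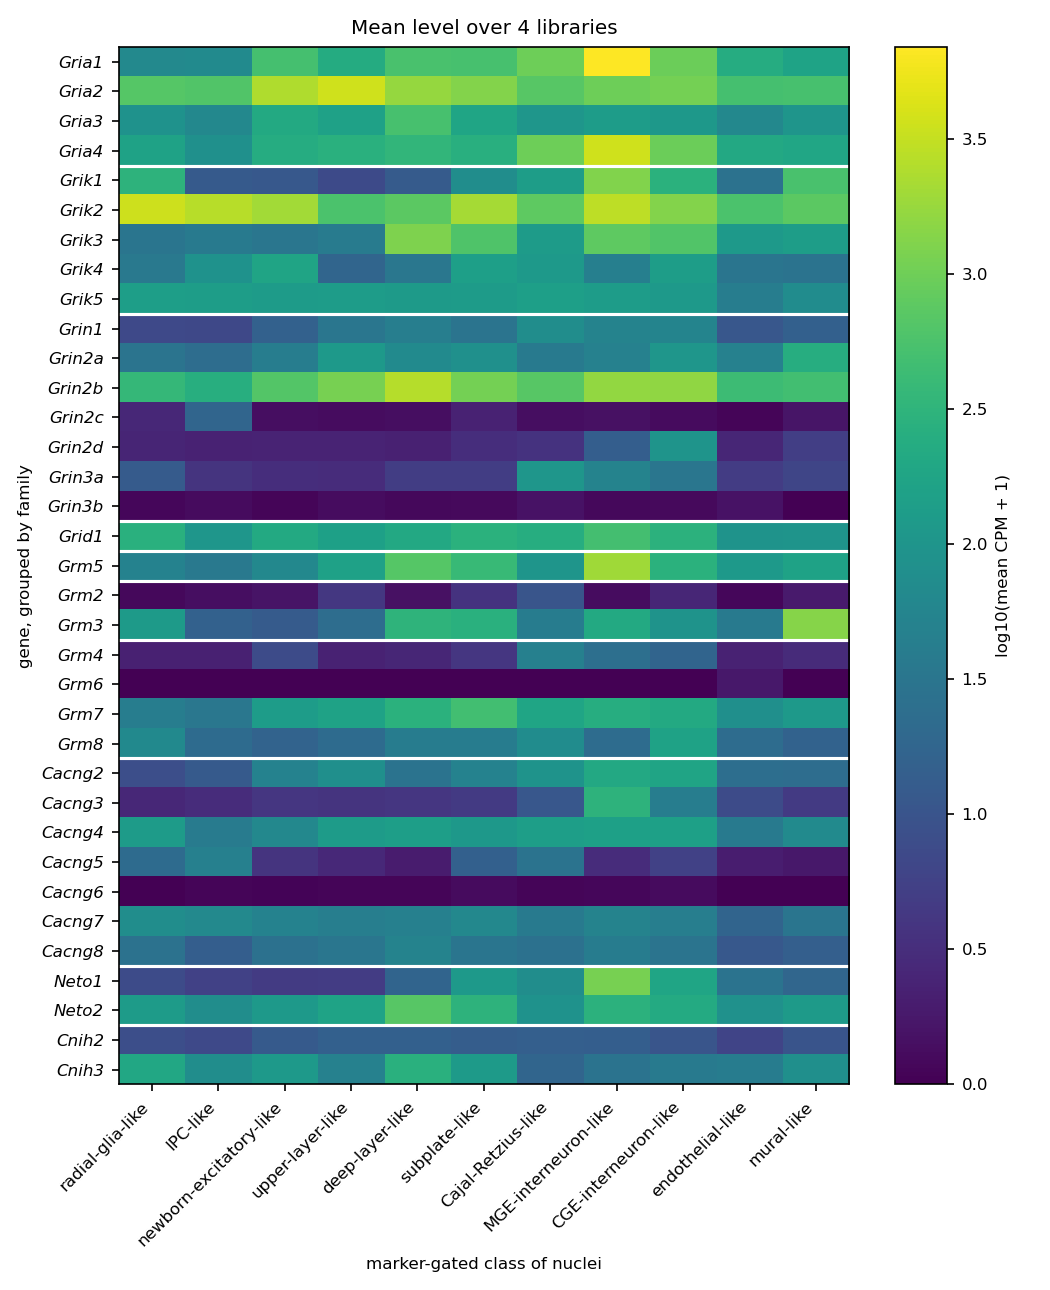
Mean level of 35 of the 37 genes (rows, grouped by family) in 11 classes of nuclei (columns), as log10 of the mean CPM over 4 libraries plus 1. *Gria1* and *Gria4* were highest in MGE-interneuron-like nuclei, *Grik2* in radial-glia-like nuclei and *Gria2* in upper-layer-like nuclei, while *Grin3b*, *Grm6* and *Cacng6* stayed near 0 throughout.

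Pairs of classes were compared within libraries (edgeR quasi-likelihood test with the library as a block, 4 libraries, 15157 genes tested, 34 of them members, adjusted p threshold 0.05). From radial-glia-like to IPC-like nuclei, 3 members were higher and 11 lower, with 22.2% of all genes tested called higher and 27.4% lower, and the median log2 fold change was -0.31 for the members and -0.05 for all genes. From IPC-like to upper-layer-like nuclei, 18 members were higher and 4 lower, against 27.2% and 30.3% of all genes, with medians of 1.02 and -0.04. Deep-layer-like nuclei had 19 members higher and 3 lower than upper-layer-like nuclei, against 19.6% and 15.4% of all genes, with medians of 0.76 and 0.01. MGE-interneuron-like nuclei had 19 members higher and 4 lower than upper-layer-like nuclei, against 16.7% and 17.8% of all genes, with medians of 0.96 and -0.02. Between the interneuron classes, 11 members were higher in MGE- and 4 in CGE-interneuron-like nuclei, against 6.00% and 7.01% of all genes, with medians of 0.31 and 0.01. Without a scaling factor the log2 fold changes of all genes shifted by a median of -0.37 between upper-layer-like and IPC-like nuclei and by -0.14 between deep-layer-like and upper-layer-like nuclei, and by -0.05 to 0.05 in the other pairs.

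Of the 4 AMPA receptor subunit genes, 2 were higher and 1 lower in MGE-interneuron-like than in upper-layer-like nuclei, and *Gria3* was not called (log2 fold change -0.32, edgeR adjusted p = 0.298). *Gria1* (GluA1) reached 7596 and 6742 CPM in Dnmt1 KO versus 6447 and 6924 CPM in control in MGE-interneuron-like nuclei. In upper-layer-like nuclei the same gene was at 119 to 419 CPM, within the range of endothelial-like nuclei (61.3 to 449 CPM). The groups of libraries did not overlap, and the difference was 31.1-fold (log2 fold change 4.96 ± 0.34, edgeR adjusted p = 3.06e-10). *Gria4* (GluA4) likewise stood at 3684 ± 506 CPM in the MGE class versus 269 ± 104 CPM in the upper-layer class (log2 fold change 3.71 ± 0.23, edgeR adjusted p = 7.38e-11). *Gria2* ran the other way, with 4119.6 and 3426 CPM in Dnmt1 KO versus 3694 and 3169.5 CPM in control in upper-layer-like nuclei, all above the 876 to 1068 CPM of MGE-interneuron-like nuclei (log2 fold change -1.95 ± 0.13, edgeR adjusted p = 2.46e-10). *Gria2* rose from IPC-like nuclei, where it was at 444 to 731 CPM, to upper-layer-like nuclei (log2 fold change 2.91 ± 0.14, edgeR adjusted p = 5.42e-13) and was lower in deep-layer-like nuclei, at 1589 to 1798 CPM, than in upper-layer-like nuclei (log2 fold change -0.94 ± 0.13, edgeR adjusted p = 6.04e-06). *Gria3*, the X-linked GluA3 gene, was highest in deep-layer-like nuclei (518 ± 24.8 CPM, against 155 ± 42.5 CPM in upper-layer-like nuclei, log2 fold change 1.91, edgeR adjusted p = 9.29e-07). CGE-interneuron-like nuclei had less *Gria1* (1404 and 850.4 CPM in Dnmt1 KO versus 776 and 731 CPM in control) than MGE-interneuron-like nuclei (log2 fold change 3.00 ± 0.31, edgeR adjusted p = 9.72e-07) and less *Gria4* (log2 fold change of MGE minus CGE 2.02, edgeR adjusted p = 1.40e-06), whereas *Gria2* gave -0.11 with an edgeR adjusted p = 0.663 and was not called.

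**Figure D2:**
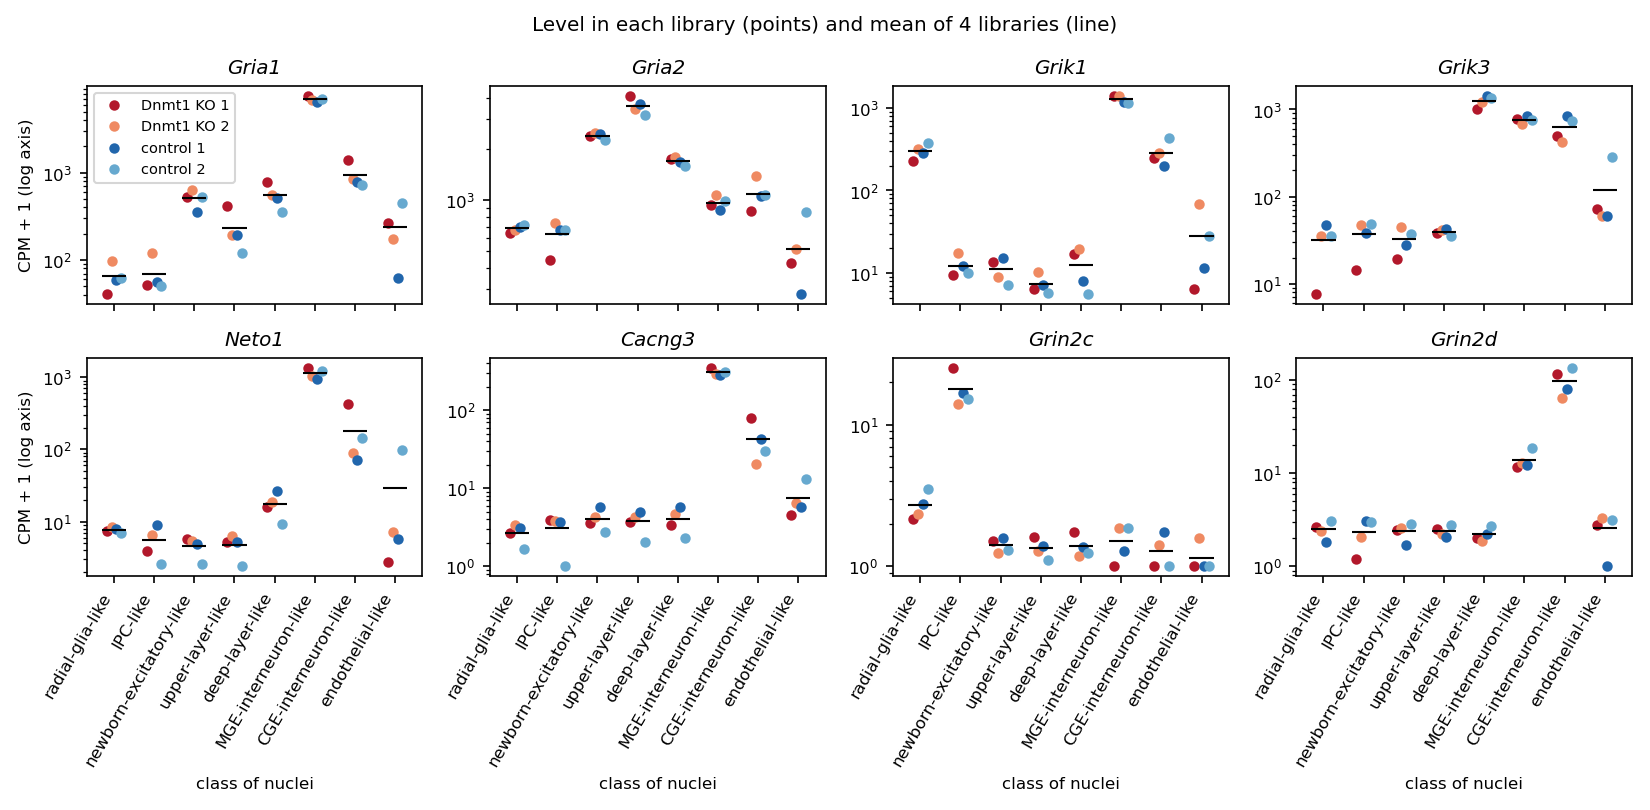
Level of 8 genes in 8 classes of nuclei, as CPM plus 1 on a log axis, with 1 point per library coloured by library and a line at the mean of the 4 libraries. *Gria1*, *Grik1*, *Neto1* and *Cacng3* peaked in MGE-interneuron-like nuclei in every library, *Grik3* in deep-layer-like nuclei, *Grin2c* in IPC-like nuclei and *Grin2d* in CGE-interneuron-like nuclei.

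Levels of different genes were compared only per length, since the 4 AMPA subunit genes span 122 to 379 kb and nuclear RNA includes unspliced transcripts. Per kb of gene body, *Gria2* made up 93.7 ± 0.606% of the AMPA sum in upper-layer-like nuclei. In the MGE class it made up 19.95 ± 1.58%, while *Gria1* made up 54.5 ± 2.73% and *Gria4* 24.4 ± 2.52%. Per kb of exon, the shares of *Gria2* were 70.6 ± 3.22% and 3.23 ± 0.306%. *Gria2* thus held the larger share in upper-layer-like nuclei on both scales. In deep-layer-like nuclei *Gria2* led per gene body only, with *Gria2* at 75.9 ± 2.01% and *Gria1* at 9.24 ± 2.37% per gene body against 33.3 ± 3.29% and 34.97 ± 6.34% per exon, shares that differed by less than their spread. CGE-interneuron-like nuclei had *Gria2* at 60.6 ± 9.34% per gene body and 19.2 ± 5.42% per exon. The source used here does not state how intronic reads were counted, so neither scale is a subunit stoichiometry.

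**Figure D3:**
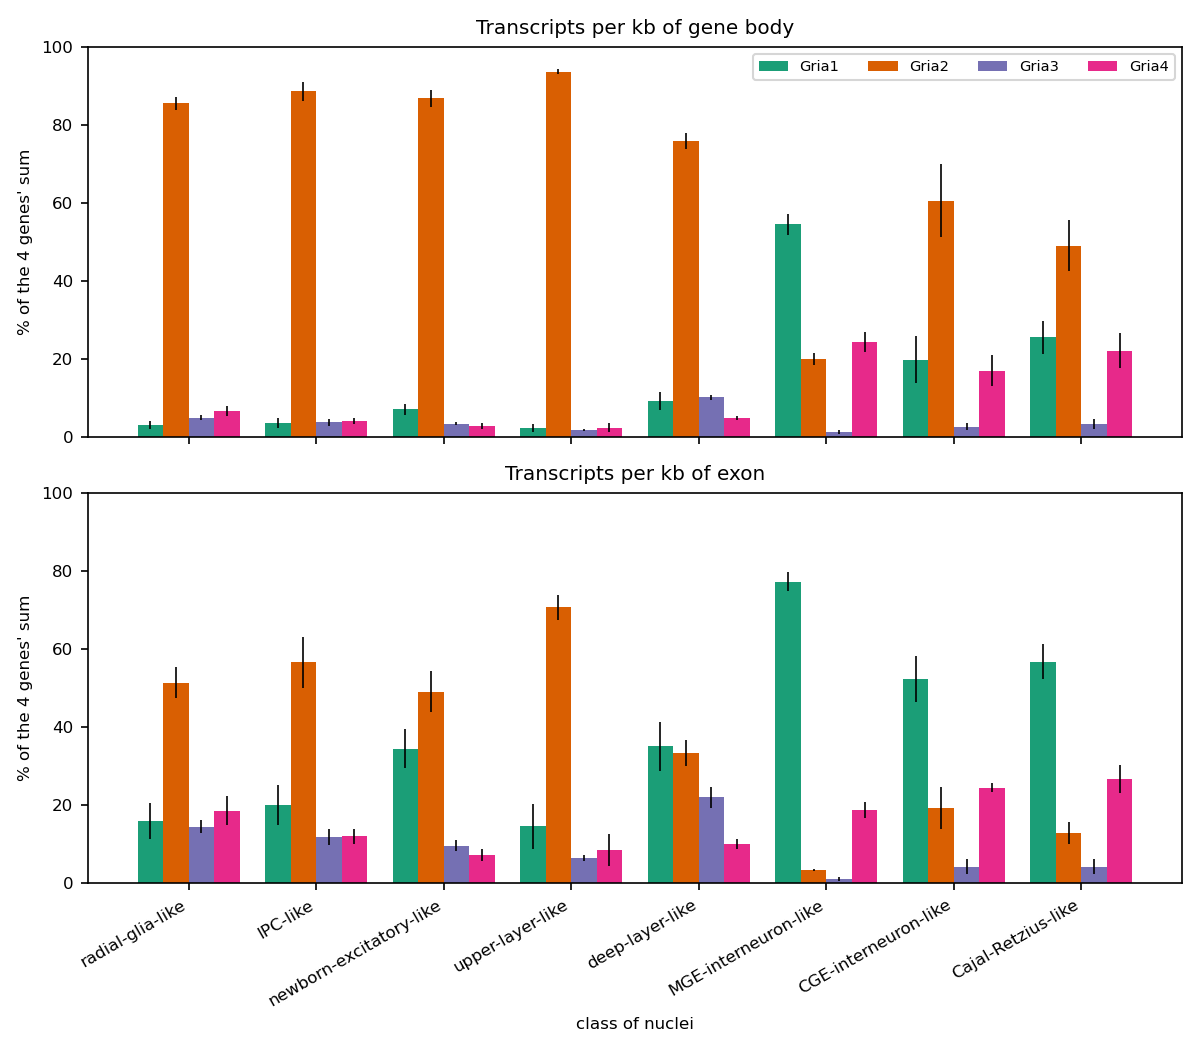
Share of each AMPA subunit gene in the summed level of the 4 genes, in percent, in 8 classes of nuclei, with transcripts scaled per kb of gene body (top) and per kb of exon (bottom). Bars are means and error bars SDs over 4 libraries. On both scales *Gria2* led in the upper-layer-like class and *Gria1* in the MGE-interneuron-like class.

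Among the AMPA receptor auxiliary genes, *Cacng3* (TARP gamma-3) was nearly restricted to interneuron-like nuclei. The MGE class had 345 and 289 CPM in Dnmt1 KO versus 286 and 305 CPM in control. CGE-interneuron-like sums ranged from 19.2 to 77.9 CPM and upper-layer-like sums from 1.05 to 4.03 CPM. All libraries of the first class stood above all libraries of the others (log2 fold change 6.83 ± 0.34, edgeR adjusted p = 4.95e-12 against upper-layer-like and log2 fold change 3.27 ± 0.30, edgeR adjusted p = 2.81e-07 against CGE-interneuron-like nuclei). *Cacng2* (stargazin) rose from 8.64 to 13.1 CPM in IPC-like nuclei to 47.1 to 103 CPM in upper-layer-like nuclei (log2 fold change 3.25 ± 0.25, edgeR adjusted p = 5.71e-10) and was lower in deep-layer-like nuclei (14.98 to 35.8 CPM, log2 fold change -1.41 ± 0.20, edgeR adjusted p = 8.64e-06). Its highest level was in MGE-interneuron-like nuclei (205 ± 15.2 CPM), where it did not separate from CGE-interneuron-like nuclei (176 ± 26.3 CPM, edgeR adjusted p = 0.333). *Cacng5* had its highest mean in IPC-like nuclei, followed by Cajal-Retzius-like nuclei (28.4 ± 8.43 CPM), and the ranges of these 2 classes overlapped. It was at 19.01 and 51.2 CPM in Dnmt1 KO versus 49.8 and 63.1 CPM in control in IPC-like nuclei, at 10.2 to 27.4 CPM in radial-glia-like nuclei (log2 fold change 1.14 ± 0.19, edgeR adjusted p = 4.27e-05) and at 0.901 to 3.16 CPM in upper-layer-like nuclei (log2 fold change -4.39 ± 0.26, edgeR adjusted p = 1.55e-11). *Cacng4*, *Cacng7* and *Cacng8* varied less, with class means of 37.9 to 153, 37.7 to 76.1 and 13.04 to 50.8 CPM outside the vascular classes. The cornichon gene *Cnih3* was at 255 to 303 CPM in deep-layer-like and 28.4 to 86.8 CPM in upper-layer-like nuclei (log2 fold change 2.81 ± 0.20, edgeR adjusted p = 9.36e-10). It was also present in radial-glia-like nuclei (203 ± 43.1 CPM) and lower in IPC-like nuclei (log2 fold change -1.39, edgeR adjusted p = 4.83e-06). *Cnih2* stayed between 6.06 and 14.3 CPM in the neuronal and progenitor classes tested.

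Of the kainate subunit genes, *Grik1* to *Grik4* each had their highest mean in a different class. *Grik1* (GluK1) was at 1400.4 and 1381 CPM in Dnmt1 KO versus 1173 and 1156 CPM in control in the MGE class. Upper-layer-like nuclei had 4.699 to 9.296 CPM (log2 fold change 7.61 ± 0.39, edgeR adjusted p = 6.02e-12). It was also above every endothelial-like library in radial-glia-like nuclei, at 226 and 314 CPM in Dnmt1 KO versus 283 and 373 CPM in control. In IPC-like nuclei it dropped to 8.45 to 16.6 CPM (log2 fold change -4.74 ± 0.36, edgeR adjusted p = 1.07e-09). *Grik2* (GluK2) was at 3534 ± 523 CPM in radial-glia-like, 2701 ± 575 CPM in IPC-like and 2913 ± 434 CPM in MGE-interneuron-like nuclei. The ranges of these 3 classes overlapped. In upper-layer-like nuclei it fell to 572 ± 205 CPM, the level of endothelial-like nuclei (568 ± 219 CPM; IPC-like to upper-layer-like log2 fold change -1.89, edgeR adjusted p = 1.09e-08). *Grik3* (GluK3) separated the layers, with 1024 and 1205 CPM in Dnmt1 KO versus 1430.1 and 1343 CPM in control in deep-layer-like nuclei and 34.7 to 41.1 CPM in upper-layer-like nuclei (log2 fold change 5.18 ± 0.35, edgeR adjusted p = 4.66e-10). *Grik4* (GluK4) had its highest mean among the 11 classes in newborn-excitatory-like nuclei (172 ± 45.5 CPM). It was higher in IPC-like than in radial-glia-like nuclei (52.04 to 113 CPM against 27.4 to 41.04 CPM, log2 fold change 1.40 ± 0.19, edgeR adjusted p = 3.77e-06), and lower in upper-layer-like nuclei (8.41 to 23.1 CPM, log2 fold change -1.97 ± 0.20, edgeR adjusted p = 4.73e-08). *Grik5* (GluK5) varied little, with class means of 119 to 147 CPM outside the vascular classes. It was called higher in upper-layer-like than in IPC-like nuclei at a log2 fold change of 0.30, and without the scaling factor the sign turned to -0.07 and the call was lost (adjusted p = 0.332). Per kb of gene body, *Grik3* made up 64.1 ± 4.53% of the kainate sum in deep-layer-like nuclei, and *Grik2* 61.3 ± 4.56% in radial-glia-like nuclei.

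*Neto1* and *Neto2*, the partners of kainate receptors, peaked in different classes. *Neto1* was at 1334 and 1037 CPM in Dnmt1 KO versus 959 and 1234 CPM in control in the MGE class and at 1.4 to 5.33 CPM in upper-layer-like nuclei. This was the largest difference among the 34 members tested in any of the 5 pairs (log2 fold change 8.25 ± 0.52, edgeR adjusted p = 9.90e-11). CGE-interneuron-like nuclei had 419 and 88.6 CPM in Dnmt1 KO versus 71.2 and 144 CPM in control (log2 fold change 2.97 ± 0.40, edgeR adjusted p = 2.94e-05). The highest of these values came from Dnmt1 KO replicate 1, whose CGE-interneuron-like sum rested on 52 nuclei and also had the highest summed MGE markers, 2228 CPM against 784 to 1615 CPM in the other libraries; their part in the result was not tested. *Neto2* was highest in deep-layer-like nuclei (689 ± 21.3 CPM, against 168 ± 20.5 CPM in upper-layer-like nuclei, log2 fold change 2.18 ± 0.10, edgeR adjusted p = 3.26e-12).

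**Figure D4:**
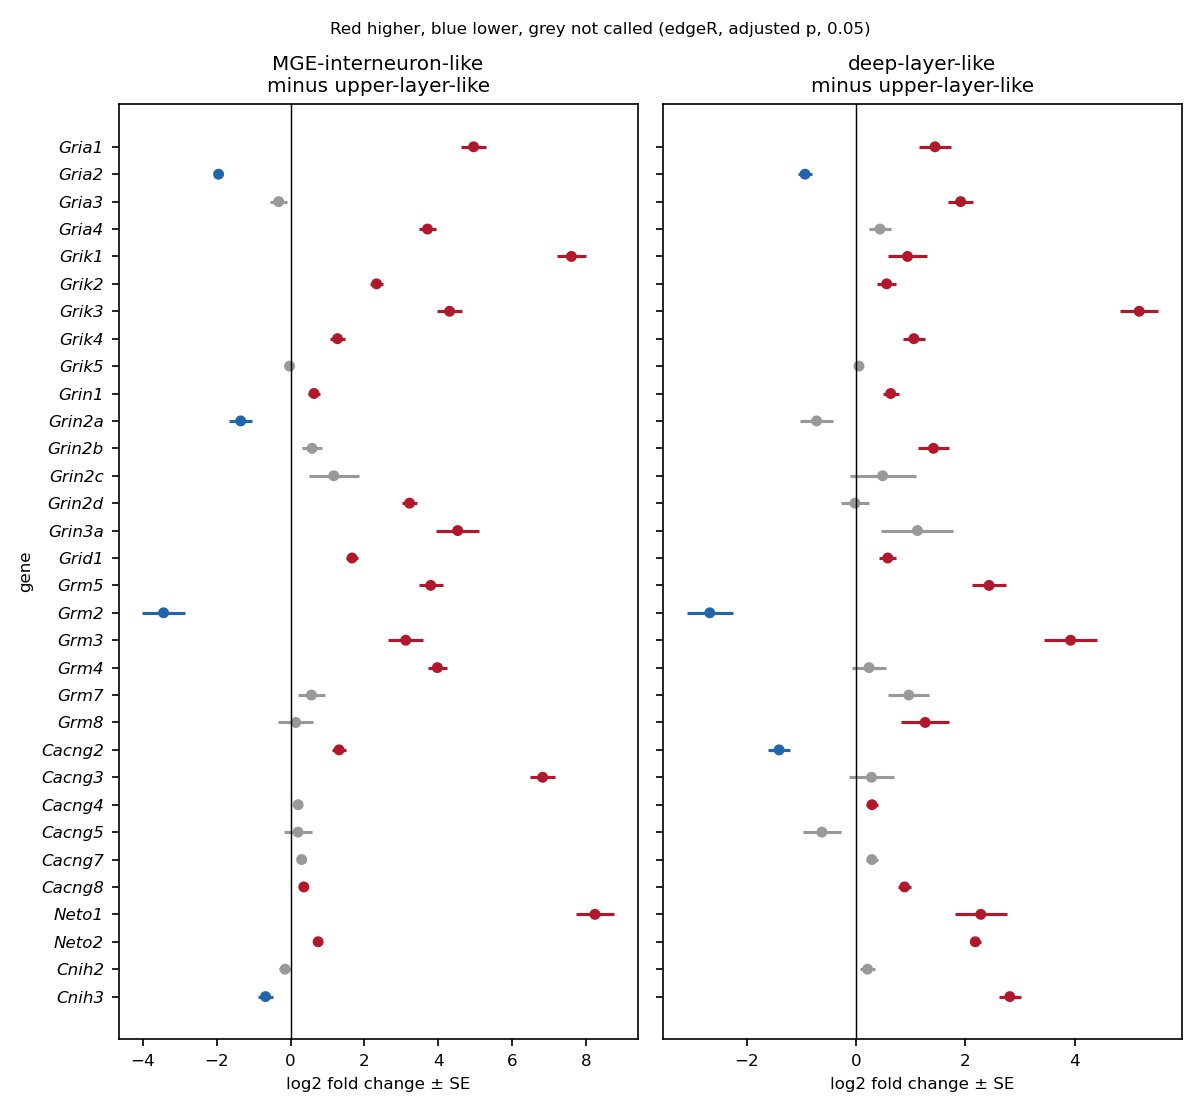
log2 fold change ± SE (edgeR) of 32 of the 34 members tested, for MGE-interneuron-like minus upper-layer-like nuclei (left) and deep-layer-like minus upper-layer-like nuclei (right). Red genes were called higher and blue genes lower at an adjusted p of 0.05, and grey genes were not called. *Neto1*, *Grik1* and *Cacng3* lie farthest to the right on the left side, and *Grik3* and *Grm3* on the right side, while *Gria2* and *Grm2* were lower in both.

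Among the NMDA receptor genes *Grin2b* encodes GluN2B, the GluN2 subunit typical of the fetal brain. *Grin2b* was at 2583 ± 136 CPM in deep-layer-like and 1121 ± 273 CPM in upper-layer-like nuclei (log2 fold change 1.42 ± 0.28, edgeR adjusted p = 0.000489). The MGE class had 1667 ± 188 CPM. *Grin2b* made up 96.4 ± 1.52% of the GluN2 sum per kb of gene body in deep-layer-like nuclei. *Grin1*, the obligatory subunit, rose from 2.496 to 8.65 CPM in IPC-like to 24.6 to 34.4 CPM in upper-layer-like nuclei (log2 fold change 2.86 ± 0.21, edgeR adjusted p = 3.14e-10). *Grin2a*, the subunit that gains weight after birth, was highest in mural-like nuclei (244 ± 42.3 CPM) and reached 118 ± 62.1 CPM in upper-layer-like nuclei. *Grin2c* and *Grin2d* were scarce outside 1 class each. *Grin2c* was at 24.0 and 12.97 CPM in Dnmt1 KO versus 15.8 and 14.3 CPM in control in IPC-like nuclei, resting on 302 transcripts in all. It was at 1.14 to 2.53 CPM in radial-glia-like nuclei (log2 fold change 3.32 ± 0.31, edgeR adjusted p = 2.03e-08) and at 0.09998 to 0.6005 CPM in upper-layer-like nuclei (log2 fold change -5.48 ± 0.41, edgeR adjusted p = 5.38e-10). Per kb of gene body *Grin2c* made up 58.4 ± 15.9% of the GluN2 sum in IPC-like nuclei and per kb of exon 13.7 ± 10.1%, so its rank beside *Grin2b* there depended on the scale. Of the GluN2 genes only *Grin2c* stood above every endothelial-like library in IPC-like nuclei. *Grin2b* was at 107 to 322 CPM there against 246 to 805 CPM in endothelial-like nuclei, so the rest of that sum is not shown to exceed this reference. *Grin2d* (GluN2D) was at 114 and 63.5 CPM in Dnmt1 KO versus 78.6 and 134 CPM in control in CGE-interneuron-like nuclei and 10.8 to 17.6 CPM in MGE-interneuron-like nuclei, without overlap (log2 fold change -2.76 ± 0.15, edgeR adjusted p = 2.03e-10). *Grin3a*, which lowers the calcium permeability of NMDA receptors, was at 102 ± 57.99 CPM in Cajal-Retzius-like and 50.9 ± 16.4 CPM in MGE-interneuron-like nuclei, whose ranges overlapped, and at 0.7998 to 5.04 CPM in upper-layer-like nuclei (MGE minus upper log2 fold change 4.53, edgeR adjusted p = 3.04e-06).

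The sequences before the start of 2 genes with such class-restricted levels are shown for the CpG dinucleotides that DNMT1 methylates, although methylation was not measured in these libraries. RefSeq windows on GRCm38.p6 were matched by symbol to 24 of the 37 members, and the 250 bases before the start are printed 5′ to 3′ on the gene's strand with CpG in capitals. *Grin2d* (CGE-interneuron-like; chr7:45866682-45866931, minus strand) and *Grin2c* (IPC-like; chr11:115267244-115267493, minus strand) read as follows.
Grin2d: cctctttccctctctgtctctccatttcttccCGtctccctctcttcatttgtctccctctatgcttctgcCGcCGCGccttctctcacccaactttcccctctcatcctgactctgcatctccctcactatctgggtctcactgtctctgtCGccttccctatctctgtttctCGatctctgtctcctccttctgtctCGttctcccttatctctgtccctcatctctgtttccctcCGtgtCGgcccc
Grin2c: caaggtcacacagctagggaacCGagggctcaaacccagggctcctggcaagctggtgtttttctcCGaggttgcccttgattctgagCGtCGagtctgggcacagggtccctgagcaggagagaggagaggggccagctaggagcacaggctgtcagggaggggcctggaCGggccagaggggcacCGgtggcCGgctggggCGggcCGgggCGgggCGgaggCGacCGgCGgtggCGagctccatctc
These windows held 9 and 15 CpGs in this order, and 59.7% and 72.7% of the 32841 mouse windows of that length held fewer. The 29 windows of the 24 members had a median of 9 CpGs, against a median of 6 over all windows. None of the 29 held the letters TAATTA, which read the same on both strands and occurred in 4.84% of all windows. Among the members with no matched window were *Gria1*, *Gria3*, *Grik1*, *Grin2a*, *Grin2b*, *Grin3a*, *Grid1*, *Grm4*, *Grm5*, *Cacng4* and *Neto1*.

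*Grid1*, a delta receptor gene, was at 535 and 519.7 CPM in Dnmt1 KO versus 437 and 477 CPM in control in the MGE class and at 110.2 to 215 CPM in upper-layer-like nuclei (log2 fold change 1.67 ± 0.16, edgeR adjusted p = 4.62e-08).

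Among the metabotropic receptors, *Grm5*, a group I receptor that couples to phospholipase C, was at 2345 and 2196 CPM in Dnmt1 KO versus 1570.2 and 1734 CPM in control in MGE-interneuron-like nuclei, at 675 ± 89.6 CPM in deep-layer-like and at 157 ± 109 CPM in upper-layer-like nuclei (log2 fold change 3.80 for MGE minus upper and 2.43 for deep minus upper, edgeR adjusted p = 1.01e-08 and 2.63e-06). *Grm3*, a group II receptor that lowers cyclic AMP, was at 1305 and 1331 CPM in Dnmt1 KO versus 1284 and 1658 CPM in control in mural-like nuclei. In the excitatory classes it was at 185 to 419 CPM in deep-layer-like and 18.3 to 31.7 CPM in upper-layer-like nuclei (log2 fold change 3.93 ± 0.48, edgeR adjusted p = 1.69e-06), and it was lower in IPC-like than in radial-glia-like nuclei (8.64 to 23.6 CPM against 50.5 to 233 CPM, log2 fold change -2.99 ± 0.52, edgeR adjusted p = 7.04e-05). *Grm2*, its group II partner, was scarce, at 3.17 ± 2.38 CPM in upper-layer-like nuclei, yet differed in the opposite direction between layers (deep minus upper log2 fold change -2.68, edgeR adjusted p = 4.25e-05; lower in 3 of 4 libraries, 47 and 200 transcripts in all). In group III, *Grm8* was at 34.6 and 162 CPM in Dnmt1 KO versus 155 and 298 CPM in control in CGE-interneuron-like and 9.67 to 48.1 CPM in MGE-interneuron-like nuclei (log2 fold change -2.90 ± 0.46, edgeR adjusted p = 0.000194), and *Grm4* was higher in MGE-interneuron-like (23.9 ± 5.81 CPM) than in upper-layer-like nuclei (1.29 ± 0.743 CPM, log2 fold change 3.98 ± 0.26, edgeR adjusted p = 1.63e-10). *Grm7*, the presynaptic group III receptor, had its highest mean in subplate-like nuclei with 25.1 and 656 CPM in Dnmt1 KO versus 873 and 319 CPM in control, a spread that covered other classes.

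Other genes of glutamatergic synapses, a list of 42 scaffolds, further auxiliary proteins, extracellular ligands and transporters, were tested in the same pairs. Of 38 tested between classes, 22 were higher and 11 lower in upper-layer-like than in IPC-like nuclei (27.2% and 30.3% of all genes). The counts were 17 and 3 in deep-layer-like against upper-layer-like nuclei (19.6% and 15.4%), and 13 and 14 in MGE-interneuron-like against upper-layer-like nuclei (16.7% and 17.8%). In that last pair the vesicular glutamate transporters *Slc17a6* and *Slc17a7* were lower (-2.22 and -2.11 on the log2 scale), and the scaffold genes *Dlgap2* and *Dlgap1* were higher (5.76 and 4.03). Between deep-layer-like and upper-layer-like nuclei *Gsg1l* and *Shisa9*, which encode other AMPA receptor auxiliary proteins, were higher in the former (3.46 and 2.70). All of these calls had an edgeR adjusted p under the threshold. The counts for IPC-like against radial-glia-like nuclei were 14 higher and 7 lower (22.2% and 27.4% of all genes), and for MGE- against CGE-interneuron-like nuclei 6 and 8 (6.00% and 7.01%).

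Dnmt1 KO and control libraries were then compared in 8 populations, to see whether any member differed by genotype. By the edgeR quasi-likelihood test no member passed the adjusted threshold in any population, and the percentage of all genes tested that passed was 0 in each. At an unadjusted p under 0.05, the members numbered 3 of 36 in all retained nuclei (7.49% of all genes tested), 5 of 30 in Sst+/Gad2+ nuclei (2.92%), 5 of 32 in MGE-interneuron-like (5.51%), 6 of 32 in CGE-interneuron-like (3.07%), 3 of 33 in radial-glia-like (5.83%), 3 of 30 in IPC-like (7.34%), 0 of 33 in upper-layer-like (3.10%) and 5 of 33 in deep-layer-like nuclei (6.73%). DESeq2 called 2 of 29 members with an adjusted p in IPC-like nuclei (0.489% of all such genes) and 2 of 30 in deep-layer-like nuclei (0.382%). It called none in the other populations, where the share of all genes was 1.15% in all retained nuclei, 0 in Sst+/Gad2+, 0.0155% in MGE-interneuron-like, 0.00986% in CGE-interneuron-like, 0.201% in radial-glia-like and 0.0143% in upper-layer-like nuclei. The fitted difference was above 0 for 18 of 36 members in all retained nuclei, 26 of 30 in Sst+/Gad2+, 25 of 32 in MGE- and 21 of 32 in CGE-interneuron-like nuclei. It was above 0 for 21 of 33 in radial-glia-like, 17 of 30 in IPC-like, 22 of 33 in upper-layer-like and 25 of 33 in deep-layer-like nuclei. Among all genes tested the share above 0 was 47.6% to 50.2%. The members' median log2 difference was 0.01 in all retained nuclei, 0.30 in Sst+/Gad2+ nuclei and 0.08 to 0.19 in the 6 classes. In 4 populations these counts and medians turned with single libraries. Without Dnmt1 KO replicate 2 the members above 0 were 10 of 36 with a median of -0.23 in all retained nuclei, 13 of 33 with -0.11 in radial-glia-like, 10 of 30 with -0.13 in IPC-like and 15 of 33 with -0.15 in upper-layer-like nuclei. Without Dnmt1 KO replicate 1 they were 23 of 36 with 0.05, 27 of 33 with 0.22, 24 of 32 with 0.26 and 30 of 33 with 0.33 in the same order. Leaving out a control also turned the median below 0 in radial-glia-like nuclei (16 of 33 members above 0 without control replicate 2) and in all retained nuclei (-0.03 without control replicate 1). In Sst+/Gad2+, both interneuron-like classes and deep-layer-like nuclei the median stayed above 0 whichever library was left out, from 0.22 to 0.42, 0.098 to 0.25, 0.14 to 0.20 and 0.065 to 0.16. With the gene-length offset the members above 0 were 12 of 36 with a median of -0.05 in all retained nuclei, and the medians were 0.07 in upper-layer-like, 0.07 in deep-layer-like and 0.04 in IPC-like nuclei. Of the 37 members 21 span over 100 kb, and in MGE-interneuron-like nuclei genes of that span held 67.4% and 67.6% of transcripts in Dnmt1 KO versus 66.5% and 66.1% in control, without overlap; their part in the result was not tested beyond that offset, with which the median in this class was 0.12. Without the upper limit on transcripts no member passed either, but the balance of signs moved. The members above 0 were then 30 of 32 with a median of 0.84 in Sst+/Gad2+ nuclei, 16 of 33 with -0.05 in radial-glia-like, 15 of 31 in IPC-like and 19 of 33 with 0.03 in upper-layer-like nuclei. With the limit kept, the median in IPC-like nuclei was 0.31 with the stricter gate, 0.21 without called doublets and 0.01 with no scaling factor. In radial-glia-like nuclei it was -0.006 with batch as a covariate, and in all retained nuclei -0.02 with the replicate block. The populations overlap, Sst+/Gad2+ with MGE-interneuron-like nuclei in particular, and share the same libraries, so these counts are not independent of each other. Of the wider list of 42 genes, none of those tested passed in any population by edgeR.

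**Figure D5:**
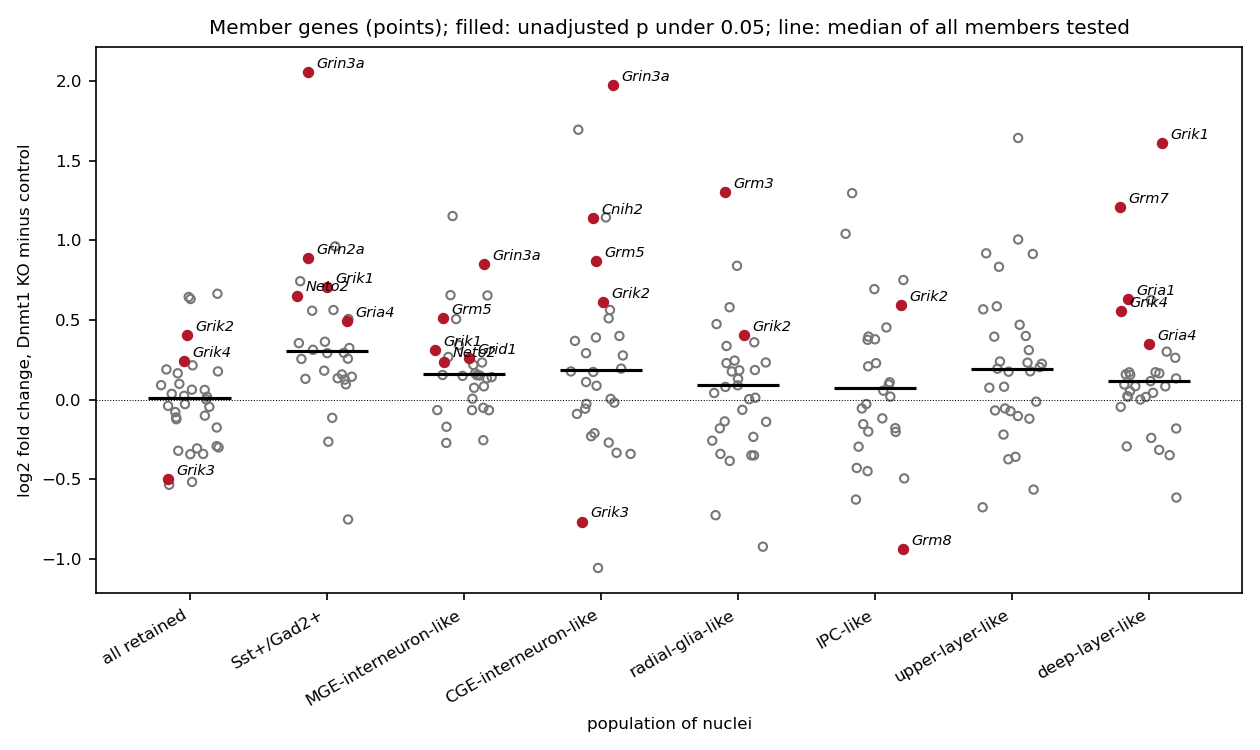
log2 fold change of Dnmt1 KO minus control for the members shown (points) in 8 populations of nuclei, with a line at the median of all members tested. Filled red points are shown members with an unadjusted p under 0.05, named beside the point, and no member passed the adjusted threshold. The median is 0.30 in Sst+/Gad2+ nuclei, 0.08 to 0.19 in the 6 classes and 0.01 in all retained nuclei, and without Dnmt1 KO replicate 2 it is below 0 in radial-glia-like, IPC-like, upper-layer-like and all retained nuclei.

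The targeted cells were approached through Sst+/Gad2+ nuclei, with at least 1 transcript of each gene, of which the Dnmt1 KO libraries had 16 and 136 and the control libraries 40 and 27. *Dnmt1* itself was at 76.1 CPM and 46.1 CPM in Dnmt1 KO versus 81.2 CPM and 66.5 CPM in control there, with overlapping groups. The counts cover the whole gene and not the deleted exons alone, so this does not check the deletion. *Grin3a* was at 630.1 and 163 CPM in Dnmt1 KO versus 69.1 and 123 CPM in control (log2 fold change 2.06 ± 0.65, edgeR adjusted p = 0.9996). Both Dnmt1 KO libraries were above both controls, but the value of Dnmt1 KO replicate 1 came from 6 of 16 nuclei, the top 3 of which held 76.5% of its 149 transcripts. The controls also rested on few nuclei, with 56.1% and 84.7% of their 57 and 85 transcripts in the top 3. The log2 difference was 0.83 without Dnmt1 KO replicate 1. It was 3.50 without the upper limit on transcripts, and the added barcodes then held 86.6% and 82.3% of the Sst+/Gad2+ transcripts in the controls, against 0 and 20.4% in the Dnmt1 KO libraries. *Grin2a* was at 127 and 108 CPM in Dnmt1 KO versus 71.5 and 57.8 CPM in control (log2 fold change 0.89 ± 0.25, edgeR adjusted p = 0.9996). The kainate receptor partner *Neto2* was at 414 and 401 CPM in Dnmt1 KO versus 285 and 254 CPM in control (log2 fold change 0.65 ± 0.21, edgeR adjusted p = 0.9996). In both genes the groups did not overlap. They and *Grin3a* were picked for the smallest unadjusted p, and the share of all genes with such groups was not counted.

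In MGE-interneuron-like nuclei *Grin3a* was at 66.9 and 62.7 CPM in Dnmt1 KO versus 33.1 and 41.1 CPM in control (log2 fold change 0.85 ± 0.15, edgeR adjusted p = 0.854). *Grm5* was at 2345 and 2196 CPM in Dnmt1 KO versus 1570.2 and 1734 CPM in control (log2 fold change 0.51 ± 0.12, edgeR adjusted p = 0.854). *Grik1* was at 1400.4 and 1381 CPM in Dnmt1 KO versus 1173 and 1156 CPM in control (log2 fold change 0.31 ± 0.11, edgeR adjusted p = 0.854). All 3 genes, picked for the smallest unadjusted p, were higher in both Dnmt1 KO libraries than in both controls. How many of all genes were so placed was not counted. With any library left out the log2 differences were between 0.71 and 1.02, 0.44 and 0.59, and 0.29 and 0.33. Their constant sign follows from the groups being apart and is no further evidence. In Dnmt1 KO replicate 1, 26 of 248 nuclei held a *Grin3a* transcript, and the top 3 held 55.6% of its 205 transcripts. Without the upper limit on transcripts the difference of *Grik1* was 0.49. Beside these values, the share of MGE-interneuron-like nuclei that were Sst+/Gad2+ was 6.45% and 13.5% in Dnmt1 KO versus 5.84% and 7.14% in control, and the *Sst* level was 6.85 CPM and 22.9 CPM in Dnmt1 KO versus 6.86 CPM and 4.55 CPM in control. *Grin3a* and *Grik1* had higher levels in Sst+/Gad2+ nuclei than in the class as a whole in all 4 libraries (means of 246 and 1816 CPM; 118 and 1539 CPM without Dnmt1 KO replicate 1), and the part of that share in the difference was not tested.

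In CGE-interneuron-like nuclei *Grin3a* was at 64.04 and 36.4 CPM in Dnmt1 KO versus 13.3 and 10.04 CPM in control (log2 fold change 1.98 ± 0.35, edgeR adjusted p = 0.9996), but 1 nucleus held 89.2% of the 37 transcripts of Dnmt1 KO replicate 1, and with the stricter gate the log2 difference was 0.99. The control values rested on 36 and 16 transcripts, the latter from 3 of 84 nuclei. *Grik3* was at 502 and 427 CPM in Dnmt1 KO versus 841 and 731 CPM in control (log2 fold change -0.77 ± 0.18, edgeR adjusted p = 0.9996), lower in both Dnmt1 KO libraries. Summed striatal markers in this class were 796 CPM and 1289 CPM in Dnmt1 KO versus 1912 CPM and 975 CPM in control and summed deep-layer markers 408 CPM and 548 CPM in Dnmt1 KO versus 1121 CPM and 843 CPM in control, and their part in these values was not tested.

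Progenitors are outside the lineage that the driver targets, and the IPC-like sums held no *Sst* transcript in any library. *Grik2* in IPC-like nuclei was at 3065 and 3310.4 CPM in Dnmt1 KO versus 2136 and 2291 CPM in control (log2 fold change 0.59 ± 0.14, edgeR adjusted p = 0.502), with groups that did not overlap, and DESeq2 called it (adjusted p = 0.0269). *Grik2* is abundant in radial-glia-like nuclei, whose summed markers in IPC-like nuclei were 671 CPM and 833 CPM in Dnmt1 KO versus 931 CPM and 862 CPM in control, lower in both Dnmt1 KO libraries; their part in the result was not tested. *Grm8* was at 9.41 and 18.8 CPM in Dnmt1 KO versus 33.4 and 23.2 CPM in control (log2 fold change -0.94 ± 0.36, edgeR adjusted p = 0.648), on 49 to 112 transcripts per library. No *Grm8* value exceeded the endothelial-like range (12.8 to 35.8 CPM). In radial-glia-like nuclei *Grik2* was at 3891 and 4072 CPM in Dnmt1 KO versus 3110.4 and 3061 CPM in control (log2 fold change 0.41 ± 0.13, edgeR adjusted p = 0.767). *Grm3* was at 233 and 113 CPM in Dnmt1 KO versus 91.9 and 50.5 CPM in control (log2 fold change 1.31 ± 0.43, edgeR adjusted p = 0.767), and its log2 difference was 0.72 without Dnmt1 KO replicate 1. *Grm3* was highest in mural-like nuclei. Summed mural markers in radial-glia-like nuclei were 119 CPM and 115 CPM in Dnmt1 KO versus 133 CPM and 118 CPM in control. What part they had in the result was not tested.

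Single libraries also stood apart from the other 3. In radial-glia-like nuclei *Grin2b* was at 111 and 507 CPM in Dnmt1 KO versus 406 and 406 CPM in control, and *Grik3* at 6.66 and 34.3 CPM in Dnmt1 KO versus 46.5 and 34.7 CPM in control. In IPC-like nuclei *Grin2b* was at 107 and 314 CPM in Dnmt1 KO versus 279 and 322 CPM in control. Dnmt1 KO replicate 1 was the lowest library in each case. No library exceeded the highest endothelial-like library for *Grin2b* (246 to 805 CPM), and all radial-glia-like *Grik3* values lay below the endothelial-like range (58.4 to 287 CPM). Dnmt1 KO replicate 2 was the highest library for *Gria3* in MGE-interneuron-like nuclei, at 93.3 and 222 CPM in Dnmt1 KO versus 100.4 and 111 CPM in control. For *Grm7* in upper-layer-like nuclei, Dnmt1 KO replicate 1 lay below the controls and replicate 2 above them. The values were 24.9 and 332 CPM in Dnmt1 KO versus 145 and 158 CPM in control.

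In deep-layer-like nuclei *Grik1* was at 16.2 and 18.3 CPM in Dnmt1 KO versus 7.04 and 4.55 CPM in control (log2 fold change 1.61 ± 0.23, edgeR adjusted p = 0.713). *Grm7* was at 289 and 494 CPM in Dnmt1 KO versus 203 and 141 CPM in control (log2 fold change 1.21 ± 0.30, edgeR adjusted p = 0.725). *Grik4* was at 34.7 and 42.6 CPM in Dnmt1 KO versus 29.0 and 24.4 CPM in control (log2 fold change 0.56 ± 0.15, edgeR adjusted p = 0.725). Each, picked for the smallest unadjusted p, was higher in both Dnmt1 KO libraries than in both controls. How many of all genes were so placed was not counted. DESeq2 called the first (adjusted p = 2.87e-05) and the second (adjusted p = 0.00974). Without Dnmt1 KO replicate 2 the log2 difference of *Grm7* was 0.77. Without the upper limit on transcripts the differences were 0.35 for *Grik1*, 0.96 for *Grm7* and 0.22 for *Grik4*; the added barcodes held 2.33% and 4.14% of the deep-layer-like transcripts in Dnmt1 KO versus 13.9% and 32.02% in control. No *Grik1* or *Grik4* value exceeded the endothelial-like range (5.37 to 67.1 CPM and 10.4 to 76.96 CPM). In upper-layer-like nuclei *Grik1* was at 4.70 to 9.30 CPM, so that range does not mark the lowest level of this gene. For *Grik1* the top 3 nuclei held 52.7% of the transcripts of Dnmt1 KO replicate 1. Summed MGE markers in deep-layer-like nuclei were 63.2 CPM and 82.6 CPM in Dnmt1 KO versus 67.1 CPM and 57.9 CPM in control, and *Gad2* was at 1.33 CPM and 3.98 CPM in Dnmt1 KO versus 11.7 CPM and 1.76 CPM in control; their part in the result was not tested.

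In upper-layer-like nuclei no member had an unadjusted p under 0.05. *Gria1* was at 419 and 195 CPM in Dnmt1 KO versus 193 and 119 CPM in control (log2 fold change 1.01 ± 0.41, edgeR adjusted p = 0.99). *Cnih3* was at 86.8 and 36.7 CPM in Dnmt1 KO versus 37.7 and 28.4 CPM in control (log2 fold change 0.92 ± 0.41, edgeR adjusted p = 0.99). *Grin3a* was at 0.901 and 5.04 CPM in Dnmt1 KO versus 1.63 and 0.7998 CPM in control (log2 fold change 1.64 ± 0.75, edgeR adjusted p = 0.99). The groups overlapped for *Cnih3* and *Grin3a* but not for *Gria1*, whose nearest values were 195 and 193 CPM. No *Gria1* value exceeded the endothelial-like range. Summed deep-layer markers in upper-layer-like nuclei were 1208 CPM and 894 CPM in Dnmt1 KO versus 1045 CPM and 697 CPM in control. What part they had in these values was not tested. Without Dnmt1 KO replicate 1, which rested on 261 upper-layer-like nuclei, the log2 differences of *Gria1* and *Cnih3* were 0.38 and 0.22. Without Dnmt1 KO replicate 2, that of *Grin3a* changed sign.

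Over all retained nuclei *Grik3* stood at 323 and 414 CPM in Dnmt1 KO versus 542 and 488 CPM in control (log2 fold change -0.50 ± 0.16, edgeR adjusted p = 0.649). *Grik4* was at 69.2 and 67.2 CPM in Dnmt1 KO versus 59.4 and 54.6 CPM in control (0.24 on the log2 scale) and *Grik2* at 1805 and 1877 CPM in Dnmt1 KO versus 1537 and 1214 CPM in control (0.40). In all 3 genes, picked for the smallest unadjusted p, the groups did not overlap. The share of all genes with such groups was not counted. *Grik3* is abundant in deep-layer-like nuclei and *Grik2* in progenitors, and in a sum over all nuclei fewer cells of a type and less RNA per cell cannot be told apart. Without the upper limit on transcripts the difference of *Grik4* was 0.12. Radial-glia-like nuclei made up 13.5% and 8.74% in Dnmt1 KO versus 8.81% and 8.71% in control, and IPC-like nuclei 8.76% and 3.77% in Dnmt1 KO versus 4.38% and 5.36% in control. Deep-layer-like nuclei made up 15.99% and 12.3% in Dnmt1 KO versus 13.7% and 19.6% in control, and striatal-like nuclei 0.248% and 0.713% in Dnmt1 KO versus 5.76% and 0.143% in control. Their part in the result was not tested.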

How the data were processed

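Single-nucleus RNA-seq libraries (Parse Evercode) were made from E16.5 medial neocortex of 2 Dnmt1 KO and 2 control samples. Per the study's methods the reads were processed by the authors with Trailmaker. The deposited gene tables name the GRCm39 genome, and the deposited matrices hold unfiltered transcript counts per barcode and gene. The annotation release and the counting of intronic reads and strand are not given in the sources used here. The submitters' processing notes also name R 4.4.1 and Seurat 5.0.1.9001.

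Barcodes with 1500 to 60000 transcripts were retained; a limit of 10% mitochondrial counts removed 0. A nucleus joined the class with the highest mean z-score of its gate markers when at least 2 were detected and the margin to the next class was at least 0.25 SD (0.5 SD in the stricter gate); 9789 of 29656 nuclei stayed without a class. No cell-type annotation was used from the authors. Doublets called by Scrublet in scanpy 1.11.5 (5% expected) were kept and left out in an alternative. Counts were summed per library and population (Python 3.11.15) and tested with edgeR 4.0.16 in R 4.3.3 (quasi-likelihood test, TMM scaling, filterByExpr, Benjamini-Hochberg over all genes tested, threshold 0.05). Genotype was tested with 2 against 2 libraries, and classes with the library as a block. DESeq2 1.42.0, other scaling, no low-count filter, leaving out each library, a replicate block, batch as a covariate, a gene-length offset, the stricter gate, doublet removal, no scaling factor and no upper limit on transcripts were tried; the last 3 were chosen after seeing the data. The edgeR step was tested on simulated data. Total retained counts ranged from 75338095 to 172783347 per library.

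Per-library values were given for the 3 members with the smallest unadjusted p in each population, for up to 3 members per direction with the largest fold change and the same sign in all 4 libraries in each pair of classes, and for the most abundant member of each family; other values were chosen after they were seen. Some members that this rule names and some promoter sequences are not reported here, but all members are in the counts and medians. The members, marker lists and gene lists were chosen with earlier results of these data known. Members picked by a small p tend to have groups that do not overlap, and the share of all genes with such groups was not counted.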

Additional observations from a re-analysis of the deposited data

Results flagged for a closer look

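In 3 genes the genotype difference ran in opposite directions in a pair of populations, with no overlap between Dnmt1 KO and control libraries in either. The members were searched over all populations tested, and the same search was not made over all genes. This number therefore has no baseline to be read against. The log2 fold change of Dnmt1 KO minus control for *Grm8* was 0.59 ± 0.29 (SE) in upper-layer-like and -0.94 ± 0.36 in IPC-like nuclei. For *Grik4* it was 0.56 ± 0.15 in deep-layer-like and -0.50 ± 0.26 in IPC-like nuclei. For *Gria2* it was 0.13 ± 0.11 in deep-layer-like nuclei. In radial-glia-like nuclei *Gria2* was at -0.065 ± 0.11, within 1 SE of 0. *Grm8* in both classes (20.7 ± 5.83 CPM and 21.2 ± 9.95 CPM), *Grik4* in deep-layer-like (32.7 ± 7.85 CPM) and *Gria2* in radial-glia-like nuclei (681 ± 30.99 CPM) did not exceed the endothelial-like range (12.8 to 35.8 CPM, 10.4 to 76.96 CPM and 279 to 847 CPM). The difference between the populations was not tested, and none of these values passed the adjusted threshold of edgeR.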

How the results depend on the processing

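Counts of members called between classes stayed within 1.5 times the main count under every alternative run, and of the 96 calls 83 kept direction and call under all 11. The other 13 lost the call in at least 1, and *Grik5* between upper-layer-like and IPC-like nuclei also changed sign without the scaling factor. By genotype, where edgeR called 0 members in each population, the count without the low-count filter (with the share of all genes called) was 1 in Sst+/Gad2+ (0.269%), 6 in MGE-interneuron-like (0.630%), 5 in CGE-interneuron-like (0.404%), 6 in IPC-like (1.55%), 4 in radial-glia-like (0.906%), 5 in upper-layer-like (0.529%) and 6 in deep-layer-like nuclei (1.68%). It was 2 in IPC-like and 2 in deep-layer-like nuclei with DESeq2, and 1 in IPC-like nuclei with the stricter gate (0.12%). Leaving out each library in turn gave 0 to 1 in Sst+/Gad2+, 0 to 6 in radial-glia-like, 0 to 5 in IPC-like, and 0 to 2 in deep-layer-like, upper-layer-like and MGE-interneuron-like nuclei. Calls appeared only where a Dnmt1 KO library was left out. Without Dnmt1 KO replicate 1 there were 2 in MGE-interneuron-like, 4 in IPC-like and 1 in deep-layer-like nuclei (0.0707% to 0.43% of all genes), and the rest without Dnmt1 KO replicate 2 (0.619% to 2.77%); the lone library is then assumed to vary like the controls. Of the values of members named by genotype, 301 kept direction and call, 28 passed the threshold under an alternative, and *Grin3a* in upper-layer-like nuclei reversed to -0.34 without Dnmt1 KO replicate 2 and was 2.18 without Dnmt1 KO replicate 1. The cause was not tested. The replicate block gave 0 calls in each population, as did batch as a covariate, the gene-length offset, RLE scaling, no scaling factor, doublet removal and no upper limit on transcripts. The members' median log2 difference still moved. With batch as a covariate it went from 0.09 to -0.006 in radial-glia-like and from 0.16 to 0.25 in MGE-interneuron-like nuclei. With the replicate block it went from 0.01 to -0.02 in all retained nuclei. The labels name no pairing beyond the replicate number, though both replicates 1 are in batch 1, as is Dnmt1 KO replicate 2. The deviations of samples with the same number had a correlation of -0.08 over all nuclei and -0.17 in the MGE class. It was -0.09 in radial glia and 0.05 in the deep-layer class. With 2 libraries per genotype this correlation cannot decide whether samples were paired. Depth was low in Sst+/Gad2+ nuclei, with 16 to 136 per library. Control replicate 2 is the only library of batch 2, so batch and library cannot be told apart.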
